A study of Arabidopsis thaliana with 9 samples.

Results

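The module described here holds 123 Arabidopsis genes whose transcript levels in cauline buds were raised to nearly the same level on the arrays labelled NAA+BA and on those labelled NAA, compared with the arrays labelled mock. The genes were chosen by their group means on the log2 scale. The NAA mean had to lie above 6, both the NAA+BA and the NAA mean had to lie at least 1 above the mock mean, which is a 2-fold difference, and the NAA+BA and NAA means had to be less than 0.5 apart. The rule was applied to 13356 genes with 1 probe set each, the probe set with the highest mean where a gene had several. Level and both differences were met by 135 genes, of which 127 also met the limit of 0.5, while in 7 the NAA+BA mean stood at least 0.5 above the NAA mean and in 1 at least 0.5 below it. Of the 127, 4 were left out because the rule drops their symbols, namely GH3.3, NRPA1, POLD3 and AT3G10040, the last through its synonym HRA1. All values that made these differences were therefore used to find the genes, so the differences are given as a description and carry no test.

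RNA was taken from cauline buds, the axillary buds of stem leaves, on isolated nodal stem segments of the wild type Col-0 at 3-4 weeks of age, and hybridized to 9 ATH1 arrays, with 3 biological replicates per group. Segments labelled NAA+BA had 1 µM of the synthetic auxin NAA (1-naphthaleneacetic acid) at the apical end. At the basal end they had 1 µM of the cytokinin (CK) BA (6-benzylaminopurine). Those labelled NAA had 1 µM NAA apically, and those labelled mock had the NAA solvent, 70% ethanol, apically in dilute form. Each treatment lasted 18 h. For mock treatments the study also names DMSO, the solvent of BA, at the basal end. The groups address how CK acts on buds held back by apical auxin. An isolated segment lacks the apex, the roots and the other buds of the plant. Groups carry their deposited labels throughout, but the study's own list of CK-responsive genes follows from these values only if the names mock and NAA are exchanged. As deposited, 0 of the 220 listed probe sets had the listed sign of change, and the largest difference was 5.99 (log2). With the names exchanged, 220 had it, with a largest difference of 5.0e-06. In that reading, the module would be lower in buds given only auxin than in control buds. It would be close to control buds in those given auxin with CK. HIS1-3, a marker of bud dormancy, stood at 10.56 in mock and would be highest in buds given only auxin. Between NAA+BA and NAA, 2 probe sets were called in limma. The study reports very few genes differing between mock and auxin with CK. Whether the deposited labels or the names behind the list are exchanged was not tested.

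Auxin moving down the stem from the apex keeps axillary buds from growing out, and CK can release them. A bud that leaves dormancy resumes cell division, for which new ribosomes, proteins and wall material have to be made. Ribosomes are assembled in the nucleolus from ribosomal RNA, ribosomal proteins and a large set of assembly factors that leave the particle as it matures. In plants, genes of ribosome assembly are known to be expressed together in dividing tissue.

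Values are RMA log2 levels, so that a difference of 1 is 2-fold, and levels of different probe sets cannot be set against each other. The platform annotation names most genes by locus number only, and 112 of the 123 module genes are known here by locus number and 11 by a symbol. A role could be given to 92 genes from their symbol or from the description in the study's gene list. Of the other 31, 17 are listed there without a function and 14 have no description here. Array medians over all probe sets lay between 6.99 and 7.11. The tissue has few named markers on the array. Of the 3 for meristem and boundary, UFO stood at 6.37 in NAA+BA, 6.44 in NAA and 6.63 in mock, LAS at 5.95, 6.04 and 5.96 in the same order, and CLV3 at 4.45, 4.21 and 4.17. HIS1-3, the gene fixed as a marker of bud dormancy, had means of 6.88 in NAA+BA and 4.22 in NAA, against 10.56 in mock.

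Taken over the 123 genes, the mean level was 8.95, 8.94 and 9.09 on NAA+BA replicates 1 to 3 and 8.97, 8.85 and 8.82 on NAA replicates 1 to 3, against 7.32, 7.51 and 8.19 on mock replicates 1 to 3. The 6 arrays labelled NAA+BA or NAA lay within a narrow band, while mock replicate 3 lay between them and the other mock arrays. Below, arrays or groups "with NAA" are those with these labels, whatever the buds received. The difference NAA+BA minus mock ran from 1.01 to 2.27 with a median of 1.27, or 2.41-fold. The difference NAA minus mock ran from 1.00 to 1.98 with a median of 1.13, or 2.18-fold. The medians over all genes were 0.02 and 0.04. Most members were thus close to the lower limit of the rule. The quartiles of NAA minus mock were 1.05 and 1.26, and 16 genes were above 1.5.

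**Figure D1:**
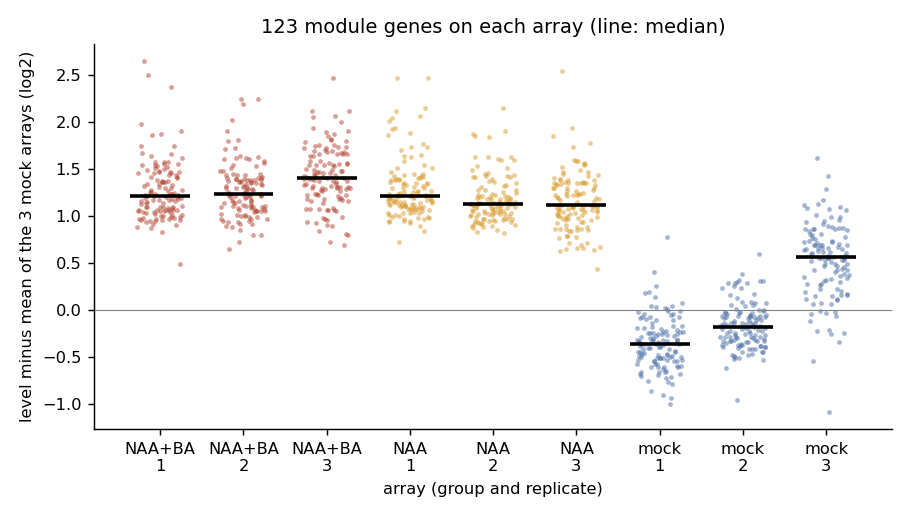
Levels of the 123 module genes on each array, given as the difference from the gene's mean over the 3 mock arrays (log2, vertical axis), with 1 point per gene and the median as a line, for NAA+BA, NAA and mock. Points of mock replicate 3 lie mostly above those of mock replicates 1 and 2, with module means of 8.19 against 7.32 and 7.51.

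NAA+BA minus NAA ran from -0.46 to 0.48 with a median of 0.11, against a median of 0.00 over all genes, which the rule did not fix beyond its limits. The NAA+BA mean was above the NAA mean in 94 genes and below it in 29, and the means were within 0.1 of each other in 40. Over all genes, 6579 had the higher mean in NAA+BA and 6776 in NAA. All NAA+BA arrays lay above all NAA arrays in 21 module genes (5.08% of all genes did so) and below all of them in 2 (3.42%). With limma and Benjamini-Hochberg adjustment over all 22810 probe sets, 0 module genes were called between NAA+BA and NAA (0.00877% of all probe sets were, which is 2 of them). At an unadjusted p under 0.05, 3 module genes and 568 probe sets in all differed, and a call missed does not show that the groups have equal levels.

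**Figure D2:**
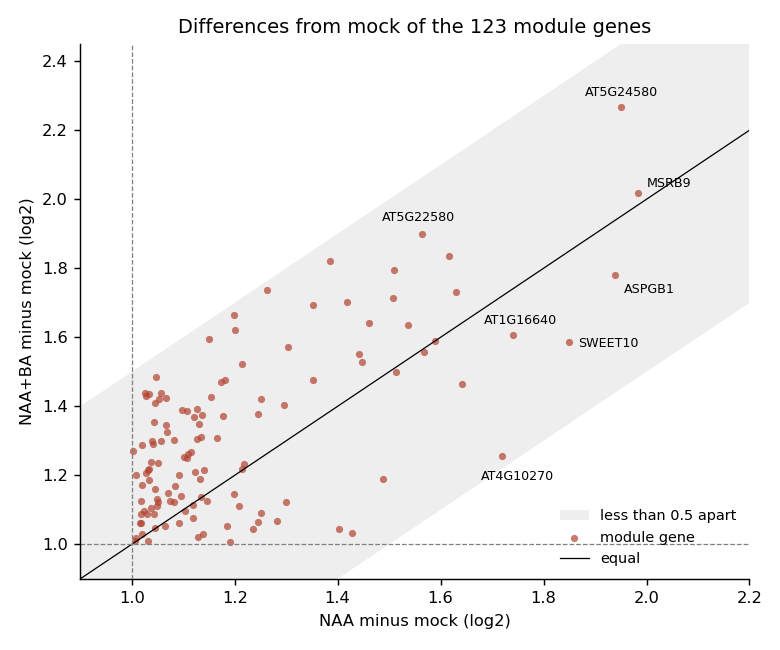
NAA+BA minus mock (vertical axis, log2) against NAA minus mock (horizontal axis, log2) for the 123 module genes, with the rule's limits of 1 as dashed lines and its band of 0.5 in grey. More points lie above the line of equality (94) than below it (29), and the plot's shape is set by the rule.

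Against mock, 120 module genes were called higher in NAA+BA (2.19% of all probe sets were) and 108 in NAA (1.28%), counts that the rule all but fixed and that carry no weight of their own. All NAA+BA arrays lay above all mock arrays in 117 module genes (17.9% of all genes) and all NAA arrays did so in 110 (16.3%). In each of the 123, mock replicates 1 and 2 lay below every array with NAA (22.2% of all genes), so the 13 genes with overlap of either kind had it through mock replicate 3. The 15 genes not called in NAA had mock SDs from 0.79 to 1.42 and were called once the replicate number was a block in the fit, as were all 123. They are also the 15 module genes absent from the study's gene list, which was chosen on these arrays and at these thresholds.

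The 12 genes with the largest NAA minus mock do not share a role. MSRB9, a methionine sulfoxide reductase that repairs oxidized methionine, had the largest difference. It stood at 9.71, 9.36 and 10.20 in NAA+BA and 9.62, 9.26 and 10.28 in NAA, against 7.27, 6.78 and 9.16 in mock. Replicate 3 was the highest array in all 3 groups, and its mock array came within 0.10 of the lowest array with NAA. The differences were 2.02 for NAA+BA minus mock and 1.98 for NAA minus mock.

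AT5G24580, described as a heavy metal transport domain protein, had the largest difference for NAA+BA, 2.27 above mock, and stood 1.95 above mock in NAA. Its levels were 8.24, 7.98 and 7.80 in NAA+BA and 7.88, 7.59 and 7.59 in NAA, against 5.66, 5.25 and 6.29 in mock. The lowest array with NAA was 1.30 above the highest mock array, the widest gap in the module.

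ASPGB1, an asparaginase that releases ammonium from the nitrogen store asparagine, differed from most members in its mock arrays. It stood at 11.76, 12.03 and 11.59 in NAA+BA and 11.95, 12.16 and 11.74 in NAA, against 10.78, 10.32 and 8.93 in mock. Here mock replicate 3 was the lowest of the 9 arrays, and the differences were 1.78 for NAA+BA minus mock and 1.94 for NAA minus mock.

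SWEET10, a member of a family of sugar transporters, stood at 8.19, 9.32 and 8.66 in NAA+BA and 9.60, 9.01 and 8.35 in NAA, against 7.54, 6.67 and 7.20 in mock. The groups with NAA did not overlap with mock, although both spread over more than 1 unit. AT4G10270, listed as wound-responsive, was the member with the largest excess of NAA over NAA+BA, with 8.42, 7.77 and 8.25 in NAA+BA and 9.36, 8.51 and 7.96 in NAA, against 6.81, 6.59 and 7.28 in mock. Its NAA+BA minus NAA of -0.46 rests on arrays that overlap.

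The gene AT1G16640 encodes a protein with a B3 domain, a DNA-binding fold found in several families of plant transcription factors. Its levels were 7.05, 6.93 and 6.76 in NAA+BA and 7.35, 6.91 and 6.88 in NAA, against 5.29, 5.56 and 5.06 in mock, with no overlap and with mock replicate 3 lowest. AT4G21870, a class V small heat shock protein, stood at 11.61, 10.85 and 10.78 in NAA+BA and 11.17, 10.84 and 10.57 in NAA, against 9.38, 9.33 and 9.03 in mock. It lies 2 coding genes from MSRB9 on chromosome 4, whose mock replicate 3 by contrast was the highest mock array.

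The remaining 5 of the 12 were AT4G11190 (a dirigent protein), AT4G02850 (phenazine biosynthesis family), AT1G10990 (no function listed), AT1G66940 (kinase-related) and AT5G22580 (a stress-responsive A/B barrel protein). Their NAA+BA minus mock ran from 1.46 to 1.90 and their NAA minus mock from 1.56 to 1.64. The widest spread among them within a group with NAA was that of AT4G02850, with 8.18, 7.25 and 6.37 in NAA+BA and 7.24, 7.43 and 6.83 in NAA, against 5.58, 5.84 and 5.20 in mock. Even so, its lowest array with NAA remained above its highest mock array.

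**Figure D3:**
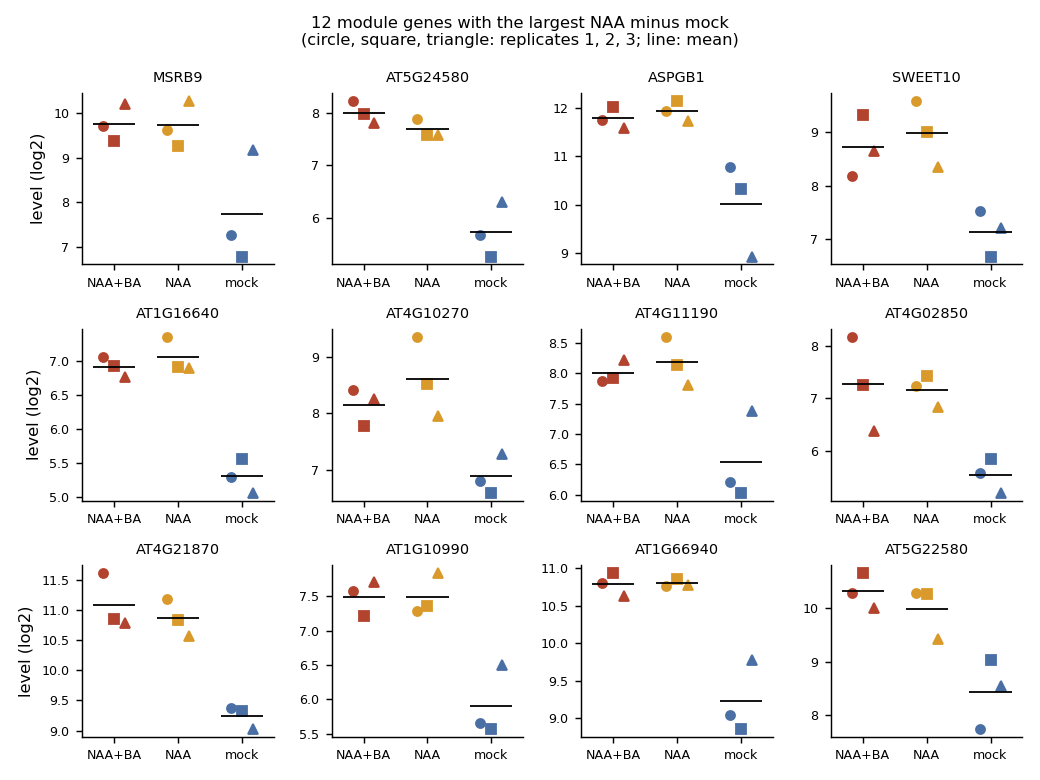
Levels (log2) of the 12 module genes with the largest NAA minus mock on the arrays of NAA+BA, NAA and mock, with replicates 1, 2 and 3 as circle, square and triangle and the group mean as a line. In all 12, every array with NAA lies above every mock array, and the triangle of mock is high for MSRB9 (9.16) and low for ASPGB1 (8.93).

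Genes of ribosome production made up the largest group of described members. Assembly factors numbered 13 and ribosomal proteins 9. Among the assembly factors are YAO, a nucleolar WD40 protein, and relatives of BMS1, MAK16, EBP2, KRR1, LAS1 and SDA1, all of which are known from yeast as factors that help build ribosomal subunits. NAA+BA minus mock ran from 1.06 to 1.62 over the 13 with a median of 1.30, and NAA minus mock from 1.00 to 1.25 with a median of 1.11.

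YAO stood at 9.16, 9.42 and 9.47 in NAA+BA and 9.06, 9.09 and 9.31 in NAA, against 7.47, 7.69 and 8.77 in mock. The BMS1-like gene AT1G06720 had the largest difference of the group in NAA+BA, with 9.22, 9.31 and 9.69 in NAA+BA and 9.08, 9.02 and 8.85 in NAA, against 7.18, 7.53 and 8.64 in mock. All 3 of its NAA+BA arrays exceeded its NAA arrays. The MAK16-like gene AT1G23280 was the only assembly factor here with a lower mean in NAA+BA, 8.34, than in NAA, 8.50, against 7.25 in mock.

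Ribosomal protein genes in the module encode S2-4, S8-2, S11-2, S17-3, S27a-1, L9-2, L27-1 and L35a-1 of the cytosolic ribosome and HLL (HUELLENLOS), an L14 protein of an organellar ribosome. Their NAA+BA minus mock ran from 1.10 to 1.79 with a median of 1.26, and their NAA minus mock from 1.02 to 1.51 with a median of 1.11. S27a-1 (AT1G23410) had the largest difference, with 9.13, 9.08 and 9.59 in NAA+BA and 9.24, 8.88 and 8.82 in NAA, against 6.98, 7.08 and 8.36 in mock. HLL stood at 10.35, 10.04 and 10.44 in NAA+BA and 10.15, 9.86 and 9.92 in NAA, against 8.23, 8.69 and 9.50 in mock. S8-2 (AT5G59240) was the ribosomal protein gene whose groups overlapped, with 7.27 on mock replicate 3 and 7.25 on NAA replicate 2.

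The NAA+BA mean was above the NAA mean in 12 of the 13 assembly factors and in all 9 ribosomal protein genes, 21 of 22 in all, beside 94 of 123 in the module. Their median NAA+BA minus NAA was 0.24 and 0.18. In the 14 genes with no description, all higher in NAA+BA, the median was 0.29. Their roles are not known here and may include ribosome production, so they give no comparison. Among the described genes the shift was not particular to the ribosome groups. The median was 0.21 in the 4 chaperone genes and 0.18 in both the 6 genes of RNA handling and the 9 other described genes. Organellar genes had 0.13, cell wall and secreted proteins 0.11, cell division and DNA 0.09 and genes listed without a function 0.05. It was 0.01 in the 14 metabolic genes and 0.01 in the 13 genes of transport, signaling and regulation. These values are given as a description. The limit of 0.5 in the rule kept out genes with a larger shift.

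Of the ribosome biogenesis genes fixed as a list, 9 are named on the array and measured, and 2 of them, YAO and TRM82, are in the module. The list took in genes of another kind, such as TRM82, a gene of tRNA modification that is grouped here with RNA handling. In limma, 4 of the 9 were called higher in NAA+BA (2.19% of all probe sets were) and 2 in NAA (1.28%). The 2 in NAA were YAO and TRM82, which the rule had chosen on these values, and both are also among the 4 in NAA+BA. The list itself was chosen with earlier results of these data known, so these counts are a description. In either comparison 0 were called lower (3.25% of all probe sets in NAA+BA and 3.51% in NAA). DIM1B went the other way, at -0.19 for NAA+BA and -0.57 for NAA (adjusted p = 0.50 and 0.041 from limma), short of the 2-fold limit. The list's median was 0.89 for NAA+BA minus mock and 0.78 for NAA minus mock. The genes called in NAA+BA but not in NAA were AT5G14520, which stood at 11.99 in NAA+BA and 11.61 in NAA, against 10.83 in mock, and AT3G09720, which stood at 8.48 in NAA+BA and 8.05 in NAA, against 7.15 in mock. Whether their level in NAA+BA exceeds that in NAA is not shown by these calls.

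RNA handling and translation supplied 6 further genes, all with the higher mean in NAA+BA. TRM82 encodes a subunit of a tRNA methyltransferase in yeast, and stood at 9.75, 9.63 and 9.99 in NAA+BA and 9.51, 9.66 and 9.93 in NAA, against 8.12, 8.41 and 9.21 in mock. AT4G31790 encodes a diphthine synthase, an enzyme of the pathway that modifies a histidine of elongation factor EF2. It stood at 9.59, 9.83 and 9.71 in NAA+BA and 9.62, 9.70 and 9.26 in NAA, against 8.08, 8.35 and 9.06 in mock. Neither gene had overlapping groups with NAA and mock.

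The 7 organellar genes comprised 4 pentatricopeptide repeat (PPR) proteins, a family that processes RNA in mitochondria and plastids, and 3 genes of the mitochondrial glycoprotein type. Their median NAA+BA minus mock was 1.23 and their median NAA minus mock 1.06. The PPR gene AT1G20300 had the largest differences of the 7, with 8.10, 8.16 and 8.15 in NAA+BA and 8.14, 8.18 and 7.69 in NAA, against 6.70, 7.04 and 6.54 in mock. The glycoprotein-type gene AT1G80720 showed the other extreme of the mock arrays, with 7.63, 7.76 and 7.97 in NAA+BA and 7.95, 7.76 and 7.97 in NAA, against 6.24, 6.42 and 7.60 in mock.

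Cell division and DNA were represented by 9 genes, among them the motor proteins AT3G44050, AT5G33300 and AT2G37420, the RecQ-like helicase gene AT1G27880, and TRM28 of the TON1 recruiting motif family, which is linked to microtubules. Their median NAA+BA minus mock was 1.17 and their median NAA minus mock 1.09. The kinesin gene AT3G44050 was among the 3 members with the narrowest replicate spread, with 7.99, 7.87 and 8.10 in NAA+BA and 8.08, 8.06 and 8.21 in NAA, against 6.95, 6.75 and 7.10 in mock. TRM28 stood at 7.28, 6.89 and 7.51 in NAA+BA and 7.18, 6.95 and 7.23 in NAA, against 5.56, 5.54 and 6.38 in mock. In both, groups with NAA lay apart from mock.

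Of the replication and repair genes in a fixed list, 6 were measured, and none of them was in the module or called. In PRL, POLA3, TOPII and UNG, NAA+BA minus mock ran from 0.87 to 0.98 and NAA minus mock from 0.93 to 1.00, close below the module's limit. POLA3, a subunit of the polymerase that starts new DNA strands, stood 0.94 above mock in NAA+BA and 0.98 in NAA (adjusted p = 0.0039 and 0.0032 from limma, Benjamini-Hochberg). RAD5 stood at 0.70 in both, and PSF2 at 0.10 in NAA+BA and 0.19 in NAA. With no fold limit, 5 of the 6 had an adjusted p under 0.05 and a higher level in each comparison (10.6% of all probe sets in NAA+BA and 9.03% in NAA), and PSF2 did not. The cell division list held 5 measured genes, none of them called. BUBR1 stood at 0.75 for NAA+BA and 0.97 for NAA, BUB3.1 at 0.58 and 0.60, and TSO1 at 0.62 and 0.60. KINESIN-13A stood at 0.28 and 0.47, and BRK1 at 0.05 and 0.21. The last pair had an adjusted p above 0.05 in both comparisons (limma, Benjamini-Hochberg).

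The 4 chaperone genes were AT4G21870, Hsp70-2, HSP70-3 (AT3G09440) and the prefoldin family gene AT5G27330. Hsp70-2 stood at 8.75, 8.23 and 8.69 in NAA+BA and 8.67, 8.40 and 8.67 in NAA, against 7.07, 7.23 and 7.99 in mock. Its lowest array with NAA lay above its highest mock array.

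Cell wall and secreted proteins gave 8 genes, with a median NAA+BA minus mock of 1.43 and a median NAA minus mock of 1.20. They comprised 3 dirigent proteins, which guide the coupling of lignan or lignin precursors, 2 thaumatin-like proteins, the pectinesterase gene AT1G02810, the polygalacturonase gene AT3G15720 and XTH32, an enzyme that cuts and rejoins xyloglucan. AT1G02810 stood at 6.15, 5.98 and 6.68 in NAA+BA and 6.36, 5.93 and 5.98 in NAA, against 4.45, 4.60 and 4.84 in mock. XTH32 stood at 10.64, 10.44 and 10.18 in NAA+BA and 10.53, 10.32 and 10.39 in NAA, against 9.09, 9.68 and 9.34 in mock, with its mock replicate 3 between the other mock arrays. By the names used for cell wall families, 68 genes on the array were matched, which took in some of another kind, such as the splicing factor genes PRP39 and PRP39-2, the peroxiredoxin gene PRXIIF and PMEAMT, a methyltransferase gene. Of the 68, 2 were called higher in NAA+BA, XTH32 and EXPA4 (2.19% of all probe sets were), and 2 in NAA, XTH32 and XTH16 (1.28%). In either comparison 0 were called lower (3.25% of all probe sets in NAA+BA and 3.51% in NAA). Counts this small are near the shares over all probe sets, and XTH32 was chosen by the rule. The median over the 68 was 0.10 for NAA+BA and 0.13 for NAA.

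Metabolic enzymes were the most numerous single class at 14, with NAA+BA minus mock from 1.04 to 2.02 and NAA minus mock from 1.04 to 1.98. Beside MSRB9, ASPGB1 and AT4G02850 they included AT4G20320, a CTP synthase that makes a building block of RNA, AT1G12000, a pyrophosphate-dependent phosphofructokinase of glycolysis, AT1G50110, a branched-chain aminotransferase, and AT5G44630, a barbatene synthase that makes a volatile sesquiterpene. AT4G20320 stood at 9.29, 9.34 and 9.13 in NAA+BA and 8.49, 9.06 and 8.90 in NAA, against 7.39, 7.40 and 7.50 in mock. Its 3 mock arrays were almost level, and all its NAA+BA arrays exceeded its NAA arrays. AT5G44630 stood at 9.55, 9.26 and 9.64 in NAA+BA and 9.24, 9.49 and 9.75 in NAA, against 7.77, 8.14 and 8.04 in mock.

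Transport, signaling and regulation accounted for 13 genes, with a median NAA+BA minus mock of 1.19 and a median NAA minus mock of 1.15. Besides SWEET10, AT5G24580, AT1G16640 and AT1G66940 they included AT5G62730, a peptide and nitrate transporter family gene, AT1G30690, the sec14-type protein patellin-4, AT5G62710, a leucine-rich repeat kinase gene, and RBL (REBELOTE), a nucleolar protein with a role in flower meristems. RBL stood at 9.59, 9.51 and 10.24 in NAA+BA and 9.33, 9.38 and 9.82 in NAA, against 7.45, 8.18 and 9.44 in mock. It was the only gene with a role that was not called in NAA, which held without the replicate block but not with it, and its mock replicate 3 exceeded NAA replicates 1 and 2. AT1G30690 stood at 9.80, 9.95 and 9.96 in NAA+BA and 9.84, 10.11 and 9.75 in NAA, against 8.82, 8.75 and 9.12 in mock. Its differences of 1.01 put it just inside both limits. Of 26 genes matched by the names of transporter families, the module gene SWEET10 was called higher and SWEET11 lower in both comparisons. SWEET11 stood at -1.37 for NAA+BA and -1.22 for NAA. Over all probe sets, 2.19% were called higher in NAA+BA and 1.28% in NAA, and 3.25% and 3.51% lower. Of 78 genes matched by the names of transcription factor families, 0 were called higher, while 2 were called lower in NAA+BA (3.25% of all probe sets) and 1 in NAA (3.51%). These were bZIP58, at -1.43 for NAA+BA, and PIFI, at -1.23 for NAA+BA and -1.91 for NAA. The levels of bZIP58 were low, at 3.89 in NAA+BA and 4.49 in NAA, against 5.31 in mock, all below the array medians. PIFI is not a transcription factor but was matched by its name, as was the glycosyltransferase gene GT72B1. An unadjusted p under 0.05, in either direction, was found in 20 of the 78 for NAA+BA (31.9% of all probe sets) and in 17 for NAA (31.6%).

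**Figure D4:**
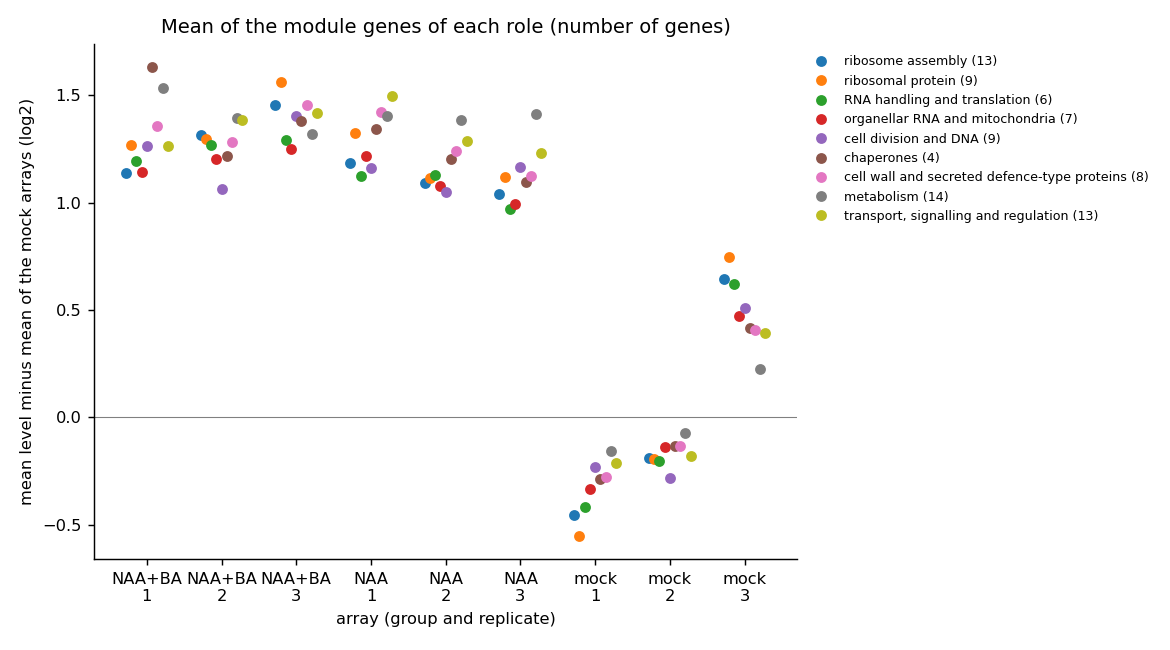
Mean level of the module genes of each role on each array, as the difference from their mean over the 3 mock arrays (log2), for NAA+BA, NAA and mock. On mock replicate 3 the 9 ribosomal protein genes stood 0.75 and the 13 assembly factors 0.64 above their mock mean, and the 14 metabolic genes 0.23.

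The other 9 described genes hold P-loop NTPases, endonuclease or hydrolase family proteins and single members of further families, with NAA+BA minus mock from 1.01 to 1.90 and NAA minus mock from 1.02 to 1.72. The 17 genes listed without a function ranged from 1.01 to 1.59 for NAA+BA and from 1.02 to 1.59 for NAA. The 14 genes with no description ranged from 1.12 to 1.74 for NAA+BA and from 1.02 to 1.26 for NAA. AT5G14580 of this last set had the widest replicate spread of the module, with 8.29, 8.47 and 8.94 in NAA+BA and 8.07, 8.02 and 8.18 in NAA, against 5.82, 6.21 and 8.45 in mock, where mock replicate 3 exceeded all NAA arrays.

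The module genes spread widely between the mock arrays, which the rule did not use. The median SD over module genes was 0.19 in NAA+BA and 0.17 in NAA, against 0.51 in mock. Over all genes it was 0.13 in NAA+BA and 0.16 in NAA, against 0.21 in mock. The spread was not particular to the module. In the 282 genes described below that moved the other way, the median SD was 0.22 in NAA+BA and 0.21 in NAA, against 0.51 in mock. Mock replicate 3 was the highest mock array in 106 of the 123 genes, as it was in 43.2% of all genes. On the way from the mean of mock replicates 1 and 2 to the mean of the 6 arrays with NAA, it stood at 57.3% in the median gene, and above 50% in 72 genes. It was below both other mock arrays in 9.

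The position of mock replicate 3 differed between roles, given here with no test. Its median was 69.7% in the 13 assembly factors, 63.8% in the 9 ribosomal protein genes, 63.6% in the 6 genes of RNA handling, 61.8% in the 7 organellar genes and 58.6% in the 9 genes of cell division and DNA. It was 45.9% in the 8 cell wall and secreted proteins, 34.9% in the 13 genes of transport, signaling and regulation and 27.2% in the 14 metabolic genes. Nearly all ribosome genes, 19 of 22, were past 50%, beside 3 of the 14 metabolic genes and 3 of the 13 of transport, signaling and regulation. All genes with a role except RBL are in the study's list, which holds only genes called there. The 14 genes with no description are not in it, and in them mock replicate 3 stood at 80.8% to 105.9%.

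**Figure D5:**
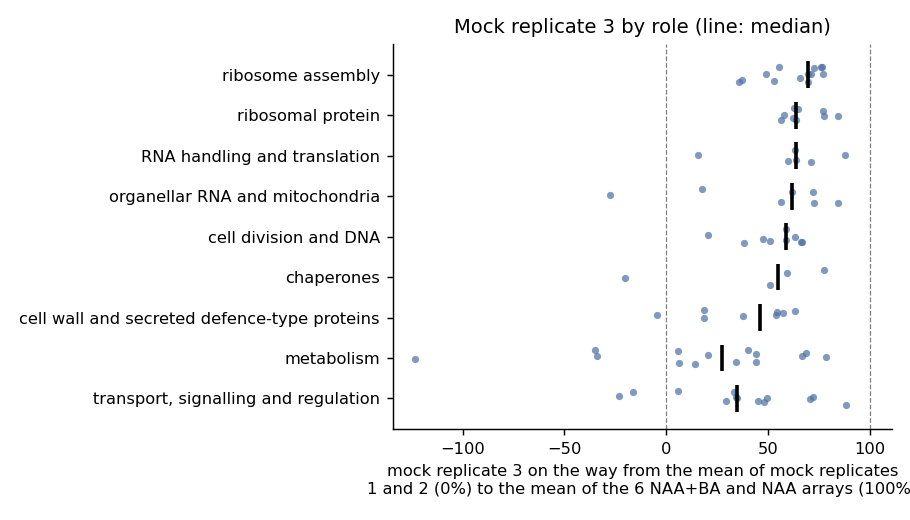
Position of mock replicate 3 (horizontal axis, percent) between the mean of mock replicates 1 and 2 (0%) and the mean of the 6 NAA+BA and NAA arrays (100%), with 1 point per module gene in 9 roles and the median as a line. Points of assembly factors cluster around their median of 69.7%, and those of metabolic genes reach from -123.3% (ASPGB1) to 78.7% (MSRB9).

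The same array stood apart in genes that moved the other way. In 282 genes with mock means above 6 and both other means at least 1 lower and less than 0.5 apart, mock replicate 3 had a median deviation of -0.52 from the mock mean, while in the module it was 0.56 and over all genes 0.01. Across all probe sets, which are not independent replicates, mock replicate 3 correlated at 0.975 and 0.979 with mock replicates 1 and 2 and at 0.975 to 0.981 with the arrays with NAA, while mock replicates 1 and 2 correlated at 0.994. Without mock replicate 3, NAA minus mock of the module genes ran from 0.75 to 2.69 with a median of 1.44, and 370 genes met the rule, 121 of the 123 among them. Without mock replicate 1, 46 genes met it, 43 of them module genes, and without mock replicate 2, 78 did, 69 of them module genes. Whether the array differs in its buds, its treatment or its handling was not tested.

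Some members lay just at the limits. On NAA minus mock, AT3G23620 (1.00), AT1G30690 (1.01) and AT3G15080 (1.01) were just inside, while AT1G63810, AT5G67510 and AT3G13230, each at 1.00 when rounded, were just outside, and 138 genes failed only there. On NAA+BA minus mock, AT3G51720 (1.01), AT4G15830 (1.01) and AT1G30690 (1.01) were inside and AT3G03130 (0.99), AT3G62110 (0.98) and AT2G16270 (0.98) outside, and 29 genes failed only there. On the distance between NAA+BA and NAA, AT5G14580 (0.48), AT3G06530 (0.47) and AT4G10270 (0.46) were inside and AT4G04940 (0.53), AT3G12860 (0.57) and AT3G28560 (0.61) outside. On the NAA level, AT1G02810 (6.09), AT5G60030 (6.44) and AT5G55330 (6.50) were inside and AT5G59305 (5.84), AT4G11210 (5.59) and AT2G31035 (5.36) outside.

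ATLP-1, a thaumatin-like protein, stood at 11.42, 11.61 and 11.42 in NAA+BA and 11.78, 11.77 and 11.42 in NAA, against 10.12, 10.07 and 10.89 in mock. AT2G38160 and the SINA-like ubiquitin ligase gene AT1G66620 shared the narrowest spread with AT3G44050. AT2G38160 stood at 7.07, 7.02 and 7.07 in NAA+BA and 7.24, 7.20 and 7.31 in NAA, against 5.91, 5.90 and 6.23 in mock, and was 1 of 2 members with all NAA+BA arrays below all NAA arrays. AT1G30960, with a mock SD of 1.15, was next to AT5G14580 and MSRB9 at the wide end.

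A further probe set exists for 2 members, which the rule did not use. That of AT5G62440 stood at 9.94, 9.93 and 10.51 in NAA+BA and 9.97, 9.81 and 9.78 in NAA, against 8.04, 8.59 and 9.30 in mock. That of AT1G79150, a gene for a nucleolar complex-associated protein, stood at 8.93, 9.13 and 9.64 in NAA+BA and 8.85, 8.84 and 9.09 in NAA, against 7.06, 7.61 and 8.96 in mock. Both were higher with NAA, and in the second mock replicate 3 reached into the range of the NAA arrays. These values come from the same RNA and arrays.

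Module genes lay on all 5 chromosomes, with 37, 12, 28, 18 and 28 on chromosomes 1 to 5, or 30.1%, 9.76%, 22.8%, 14.6% and 22.8% of the module beside 25.8%, 16.4%, 20.6%, 14.6% and 22.6% of all genes. Chromosome 2 held the smallest share. Few members were neighbors. AT1G10980 and AT1G10990 lie next to each other on chromosome 1 and had NAA minus mock of 1.02 and 1.59, AT5G62710 and AT5G62730 have 1 coding gene between them, and MSRB9 and AT4G21870 have 2.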

How the data were processed

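RNA of 9 samples, 3 per group, was measured on ATH1 arrays. The deposited values are log2 levels of 22810 probe sets, made by the authors from the arrays' raw signals with RMA in R 2.15; the sources used here give no version of RMA. The study's table of fold changes and p-values served only for gene descriptions and to check the naming of groups. The module, the roles and the gene lists were chosen with earlier results of these data known. Names came from the platform annotation for probe sets that it pairs with 1 gene (13513 of 14016 in it), with symbols and gene order from RefSeq, which held 13286 of the 13356 genes. Synonyms in RefSeq counted as symbols when genes were dropped. Group means, SDs and differences were computed without filter or further normalization. For calls, limma 3.58.1 in R 4.3.3 was fitted to all 9 arrays (lmFit on group means, eBayes, Benjamini-Hochberg over all probe sets), at adjusted p under 0.05 and at least 2-fold difference, and the fit was tested on simulated data. The number of arrays limits the precision.

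Replicate numbers come from the labels. For NAA and mock, deviations from group means correlated at 0.32, 0.38 and 0.45 between arrays of the same number, so that the numbers were taken to pair these samples, although arrays numbered 1 and 2 also correlated across numbers (0.23 and 0.29). For NAA+BA and mock (0.24, 0.08 and 0.51) and for NAA+BA and NAA (0.04, 0.30 and 0.36) they were not. In each comparison number 3 gave the highest value and the ranges overlap, so these values do not settle the pairing. The main fit used no pairing, and the fit with a block used the numbers in all groups. Genes were named by a rule: the 12 with the largest NAA minus mock, up to 6 per list, 3 on each side of each limit, 3 with the widest and the narrowest spread, and 3 with the highest and the lowest level, which orders probe sets and not transcripts. List genes were matched by symbol, family name or description, and such matches can take in genes of another kind; the lists of chaperones and of organellar gene expression held several and are not reported here. Further members named as examples of a role or of its extremes were chosen after their values were seen, as were the list genes named for their calls. Alternatives were other normalizations, thresholds and models, and each array left out in turn. Promoters were not analysed here.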

Additional observations from a re-analysis of the deposited data

How the results depend on the processing

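The module held 123 genes as analysed, and 46 to 370 with 1 array left out (370 without mock replicate 3, 46 without mock replicate 1, 78 without mock replicate 2). With the names of mock and NAA exchanged, 4 other genes met the rule. Another normalization, another limit on level or distance, the dimmer probe set of a gene or no gene dropped gave 86 to 137 genes. Module genes called higher were 42 to 122 in NAA and 64 to 121 in NAA+BA with 1 array left out, and 0 between NAA+BA and NAA in every alternative. They were below 108 divided by 1.5 in NAA without mock replicates 1 (42) and 2 (56) and NAA replicates 1 (53) and 2 (69), and below 120 divided by 1.5 in NAA+BA without mock replicates 1 (64) and 2 (73) and NAA+BA replicate 3 (77). Of all probe sets, 291 were called higher in NAA (138 to 823 with 1 array left out), 499 in NAA+BA (227 to 979), and 2 between NAA+BA and NAA (1 to 4). The highest counts against mock came without mock replicate 3.

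With the replicate number as a block, all 123 module genes were called in both NAA+BA and NAA, 331 probe sets were called higher in NAA and 531 in NAA+BA, and 7 were called between NAA+BA and NAA. The block changed no other count by more than 1.5 times. Array weights gave 778 in NAA+BA, 684 in NAA and 30 between them, and no fold change threshold gave 2422 and 2059. Quantile normalization again, centring on the median, and only the 6 arrays compared each gave 1 between NAA+BA and NAA. The cause of these moves was not tested. Motifs in promoters were not run. With 3 arrays per group and most members near the limit of 1, membership of single genes is uncertain.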
